A study of Homo sapiens with 4 samples.

Results

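HIF pathway and hypoxia response genes were measured in the liver cancer cell line PLC8024, which is of human origin. With earlier results of these data known, 32 gene symbols were chosen by name. They are both HIF alpha subunits, the enzymes that sense oxygen and degrade them, and well-known HIF target genes. Of these, 31 matched a row by symbol among the 26603 genes in the data, and MIF was not analysed here. RNA was sequenced from 2 drug-treated and 2 control libraries of the same line. Drug, dose, duration, vehicle and oxygen level are not named in the labels, which also do not say whether the libraries came from separate cultures. The p-values therefore measure only the spread between these 4 samples, which may be technical. Values are reads scaled for gene length and library total (FPKM). The annotation behind the lengths is not given, so levels can be compared between genes only roughly.

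HIF is a transcription factor made of an oxygen-regulated alpha subunit (HIF1A, or EPAS1, which encodes HIF-2 alpha) and the constant partner ARNT. When oxygen is present, prolyl hydroxylases (EGLN1, EGLN2, EGLN3) mark the alpha subunit for the VHL ubiquitin ligase, which has it degraded, and the asparagine hydroxylase HIF1AN blocks its coactivators. The alpha subunit is thus controlled mainly as a protein, while HIF activity is read from its target transcripts, which serve glycolysis, mitochondrial removal, collagen hydroxylation, pH control and vessel growth. Tumours of the liver often carry poorly oxygenated regions, where this programme is known to be active.

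With drug, 13 of the 27 members that could be tested fell and 0 rose. In mean FPKM, NDRG1 differed most (-69.1%), followed by PFKFB4 (-56.1%), EGLN3 (-47.5%) and CITED2 (-32.6%). The other 9 changed less, from -10.7% (AK4) to -28.6% (BNIP3L). EGLN3 met the filter through its control level alone, so a lower drug level was built into its being tested. Messenger RNA of the HIF alpha subunits themselves did not pass in either direction. Genes listed as targets carried most of the calls: 11 of 20 tested fell, against 2 of 7 tested genes for HIF subunits, oxygen sensors and CITED2. Those 2 were EGLN3 and CITED2, which are themselves HIF-induced, so this split does not cleanly part targets from other genes. These calls come from limma on log2(FPKM + 1) over the 11227 genes averaging 1 FPKM or more in either group, at a Benjamini-Hochberg adjusted p under 0.05. Of all genes tested, 6.02% were called lower and 7.78% higher, and of tested members 48.1% were called lower. The log2 fold change was negative in 23 of the 27, against 39.0% of all tested genes. Its median was -0.18 over the 27 members and 0.04 over all tested genes. At an unadjusted p under 0.05, limma had 1 member higher and 15 lower, against 21.0% and 12.1% of all tested genes. The members called lower numbered 15 with edgeR and 16 with DESeq2 on whole reads recovered from the table, where 11.0% and 9.88% of all genes were called lower. Neither tool called a member higher, against 8.37% of all genes with edgeR and 6.89% with DESeq2. With edgeR's own filter on low reads 16 of 30 members were lower and 0 higher, against 7.22% and 5.76% of genes. The authors' deposited table has 15 of the 31 members lower and 1 (EPAS1) higher at an adjusted p under 0.05, against 4.03% and 3.18% of all its genes. Those 2 shares are over 26603 genes, of which 11227 met the filter used here, while 27 of the 31 members met it. They are therefore not like the shares of filtered genes above. The limma count rests on having 2 libraries a group and on the filter. It was smaller with any library left out, and was 1 when genes with low values were kept in the test. NDRG1 passed in all of these settings. Shares of all genes called were not computed for them. Whether the loss of calls ran across all genes or was particular to the members was therefore not tested.

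**Figure D1:**
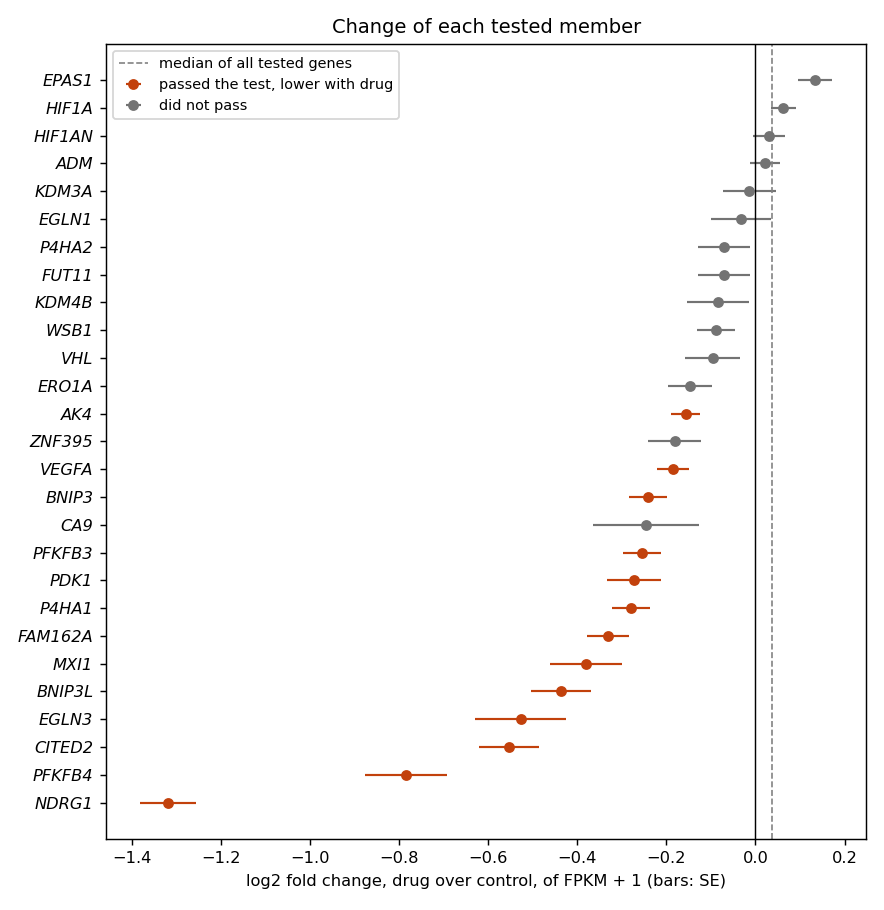
Log2 fold change of drug over control on the FPKM + 1 scale for the 27 tested members, with bars of 1 SE from limma. Orange members passed and grey ones did not. NDRG1 stands furthest left at -1.32, 23 of the 27 lie below 0, and the dashed line marks the median of all tested genes at 0.04.

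Drug libraries held 40279560 and 38685856 recovered gene reads, and control libraries 28526098 and 38611635, so control 1 was the shallowest. The 9 hepatocyte and liver cancer markers summed to 444 and 466 FPKM in drug and 341 and 354 FPKM in control libraries, a sum made up mostly of the keratins KRT8 and KRT18. KRT18 was at 221 and 233 FPKM in drug against 158 and 164 FPKM in control libraries, and KRT8 at 171 and 180.1 FPKM in drug against 130 and 137 FPKM in control libraries. By limma KRT8, KRT18 and HNF4A were called higher and ALB and APOA1 lower, so the list did not move one way. HNF4A (22.3 to 25.5 FPKM), APOA1 (14.3 to 17.5 FPKM) and SERPINA1 (9.68 to 11.04 FPKM) were expressed in every library, ALB was at 1.31 and 1.32 FPKM in drug against 3.15 and 3.23 FPKM in control libraries, AFP was under 1 FPKM, and APOB and TTR were at or near 0. Of 5 fibroblast markers all were under 1 FPKM in every library, with summed levels of 0.418 to 0.440 FPKM in drug and 0.281 to 0.294 FPKM in control libraries. Among immune markers, CD14 was under 1 FPKM and LYZ was at 283 and 287 FPKM in drug against 181 and 183 FPKM in control libraries, and 3 of the 5 were not analysed here. Among endothelial markers, VWF and CDH5 were at or near 0, PECAM1 was at 2.09 and 2.23 FPKM in drug against 4.66 and 4.11 FPKM in control libraries, and KDR was not analysed here. The part of depth and of these markers in the member results was not tested. In bulk RNA, fewer cells of a type and less RNA per cell cannot be told apart. Some widely expressed genes are listed near 0: LDHA, a HIF target that most cells use, had 4 and 2 reads in drug and 2 and 4 in control libraries. A low listed level of a single gene is therefore no measure of whether cells lack it.

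HIF binds DNA at a hypoxia response element whose core is written ACGTG or GCGTG. To show how these letters lie in the genes that moved together, RefSeq promoter windows (GRCh38.p14, 250 bases before to 50 after each start) were searched on both strands, and the palindrome CACGTG counts once on each strand. Of the 31 members, 24 had a window, with 36 windows in all. VHL, VEGFA, BNIP3L, NDRG1, ZNF395, FUT11 and RAB20 had none. At least 1 core lay in 16 of 19 windows (84.2%) of members that fell, in 10 of 13 windows (76.9%) of tested members that did not pass, and in 62.4% of the windows of all tested genes. The ACGTG form lay in 9 of the 19 windows (47.4%), in 5 of the 13 (38.5%) and in 26.4% of the windows of all tested genes. Some windows of a gene overlap, so a core can count more than once. By gene, a core lay in 9 of 10 members that fell (90.0%) and 9 of 11 that did not pass (81.8%). It lay in 71.8% of all tested genes with a window. The ACGTG form by gene gave 8 of 10 (80.0%), 5 of 11 (45.5%) and 33.3%. A gene counted if any of its windows matched, so genes with more windows had more chances. Members that fell had 19 windows over 10 genes, those that did not pass 13 over 11, and all tested genes 11752 over 8211. Shares by gene are therefore not like for like. A match describes letters and is not a site. The 6 windows below were picked after values were seen. They are the richest windows among members that fell (BNIP3 with 6 cores and FAM162A with 4), the 2 members with windows that fell most in mean FPKM (PFKFB4 with 1 core and EGLN3 with 0), and 2 members that did not pass (CA9, whose single core starts 18 bases before the start, and KDM4B with 4). Capitals mark each core or the merged run of overlapping cores, and every line runs 5′ to 3′ on the gene's strand. BNIP3 lies at chr10:131981874-131982173 on the minus strand, FAM162A at chr3:122383932-122384231 on the plus strand and PFKFB4 at chr3:48556754-48557053 on the minus strand. EGLN3 lies at chr14:33951025-33951324 on the minus strand, CA9 at chr9:35673678-35673977 on the plus strand and KDM4B at chr19:4968863-4969162 on the plus strand.
BNIP3: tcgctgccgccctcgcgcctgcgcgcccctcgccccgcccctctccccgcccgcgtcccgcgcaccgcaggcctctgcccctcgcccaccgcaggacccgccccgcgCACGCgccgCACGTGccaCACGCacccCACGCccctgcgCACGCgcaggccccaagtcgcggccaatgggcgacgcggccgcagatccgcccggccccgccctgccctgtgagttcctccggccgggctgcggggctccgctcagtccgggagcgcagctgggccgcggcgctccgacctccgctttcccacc
FAM162A: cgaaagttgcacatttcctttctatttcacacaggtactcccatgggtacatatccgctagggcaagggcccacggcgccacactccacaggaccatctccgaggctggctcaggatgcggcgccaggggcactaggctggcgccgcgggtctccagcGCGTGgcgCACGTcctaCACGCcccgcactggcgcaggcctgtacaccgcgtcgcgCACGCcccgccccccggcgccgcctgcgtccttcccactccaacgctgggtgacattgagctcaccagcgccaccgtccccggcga
PFKFB4: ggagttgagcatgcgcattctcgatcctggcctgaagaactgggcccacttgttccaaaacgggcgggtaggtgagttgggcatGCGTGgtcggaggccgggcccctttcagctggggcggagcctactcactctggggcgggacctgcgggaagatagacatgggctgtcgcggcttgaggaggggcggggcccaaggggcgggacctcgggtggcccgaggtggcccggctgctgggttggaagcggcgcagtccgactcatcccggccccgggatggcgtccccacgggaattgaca
EGLN3: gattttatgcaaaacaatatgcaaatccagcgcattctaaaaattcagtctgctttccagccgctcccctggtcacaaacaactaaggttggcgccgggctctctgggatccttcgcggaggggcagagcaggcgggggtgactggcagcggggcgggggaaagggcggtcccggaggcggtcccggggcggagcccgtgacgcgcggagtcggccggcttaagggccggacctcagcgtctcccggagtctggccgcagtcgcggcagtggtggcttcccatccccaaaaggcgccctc
CA9: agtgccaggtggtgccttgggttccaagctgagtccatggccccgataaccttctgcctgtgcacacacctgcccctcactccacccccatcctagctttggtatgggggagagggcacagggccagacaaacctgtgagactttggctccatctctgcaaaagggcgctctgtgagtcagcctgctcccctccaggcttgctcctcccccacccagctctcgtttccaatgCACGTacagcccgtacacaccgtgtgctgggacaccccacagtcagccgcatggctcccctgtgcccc
KDM4B: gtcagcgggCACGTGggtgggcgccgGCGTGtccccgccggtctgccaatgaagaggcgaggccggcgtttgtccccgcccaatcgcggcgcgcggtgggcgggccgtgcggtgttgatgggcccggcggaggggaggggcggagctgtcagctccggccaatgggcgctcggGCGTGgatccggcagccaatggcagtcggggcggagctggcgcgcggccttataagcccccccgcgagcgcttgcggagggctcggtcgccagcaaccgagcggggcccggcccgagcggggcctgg

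EPAS1 had the highest FPKM among the members. It stood at 63.1 and 67.2 FPKM in drug and at 59.6 and 58.9 FPKM in control libraries, so both drug libraries lay above both controls. The change was small and did not pass (log2 fold change 0.13 ± 0.04 SE, adjusted p = 0.0778 by limma, edgeR adjusted p = 0.0763), while the authors' deposited table gives EPAS1 a log2 fold change of 0.103 with an adjusted p of 0.0185. HIF1A, the other alpha subunit gene, had 24.4 and 24.8 FPKM in drug and 23.6 and 23.5 FPKM in control libraries. Its groups did not overlap either, by a narrow margin (log2 fold change 0.06 ± 0.03 SE, limma adjusted p = 0.197). Drug above control in both libraries was itself common, at 40.3% of all tested genes. A part of the HIF1A exons, 2.87%, is shared with another gene on the same strand.

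Among the oxygen sensors only EGLN3 passed. EGLN3 encodes a prolyl hydroxylase that HIF itself induces as a feedback gene, and lies on chromosome 14 at 33924231 to 34462774 (GRCh38, GENCODE 29). It had 0.941 and 1.00 FPKM in drug and 2.05 and 1.64 FPKM in control libraries, on 279 and 285 against 431 and 467 reads. Both drug libraries lay below both controls (log2 fold change -0.53 ± 0.10 SE, limma adjusted p = 0.0349, edgeR adjusted p = 0.00162). EGLN3 met the filter through its control level alone, so a lower drug level was built into its being tested, and its limma call was lost whichever library was left out (adjusted p from 0.0626 to 0.121). EGLN1, the main prolyl hydroxylase of most cells, lay between 1.90 and 2.00 FPKM in all 4 libraries (log2 fold change -0.03 ± 0.07 SE, limma adjusted p = 0.770). EGLN2 was under the filter, at 0.566 and 0.637 FPKM in drug and 0.459 and 0.548 FPKM in control libraries, and 30.6% of its exon bases are shared with other genes on the same strand, among them the readthrough gene RAB4B-EGLN2.

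VHL and HIF1AN, the genes of the ubiquitin ligase subunit and the asparagine hydroxylase, did not pass. VHL had 11.2 and 12.5 FPKM in drug and 13.1 and 12.3 FPKM in control libraries, and the groups overlapped (limma adjusted p = 0.335). HIF1AN had 8.97 and 8.81 FPKM in drug and 8.64 and 8.74 FPKM in control libraries (log2 fold change 0.03 ± 0.04 SE, limma adjusted p = 0.605).

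CITED2, by contrast, was among the members that moved most. Its product competes with HIF alpha for the coactivators CREBBP and EP300 and is itself HIF-induced. The gene lies on chromosome 6 at 139371807 to 139374620. Levels were 32.04 and 34.7 FPKM in drug and 52.4 and 46.6 FPKM in control libraries, with a clear gap between the groups (log2 fold change -0.55 ± 0.07 SE, limma adjusted p = 0.0120). Without drug 1, CITED2 lost its limma call (adjusted p = 0.0528), and it kept the call with any other library left out.

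**Figure D2:**
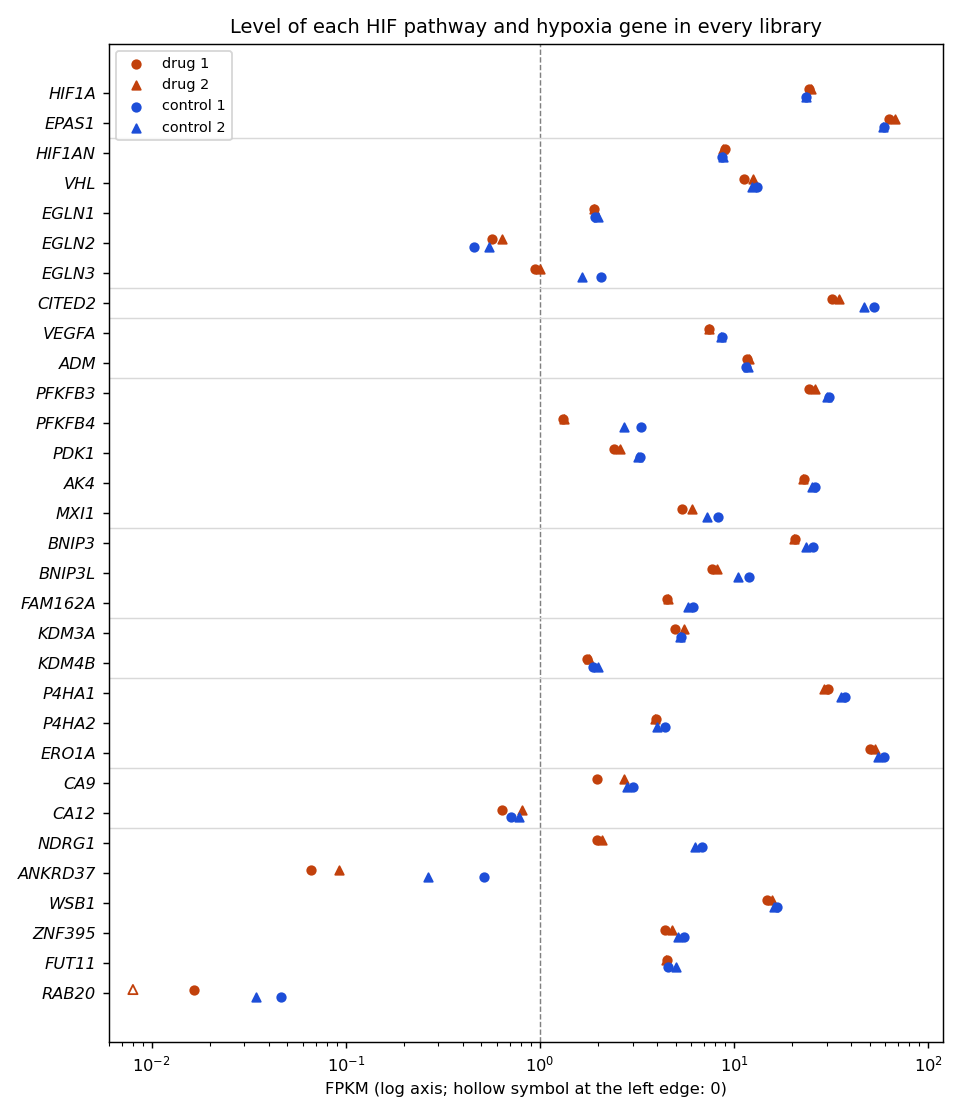
FPKM on a log axis for the 31 members in drug (orange) and control (blue) libraries, with circles for library 1 and triangles for library 2, and lines between roles. EPAS1 lies furthest right at 58.9 to 67.2 FPKM, RAB20 furthest left, and the dashed line marks the filter at 1 FPKM.

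All 5 members listed as regulators of energy metabolism were called lower by limma, against 6.02% of all tested genes. PFKFB4, which makes and breaks the fructose bisphosphate that sets glycolytic flux, lies on chromosome 3 at 48517684 to 48562015. It had 1.32 and 1.32 FPKM in drug and 3.31 and 2.72 FPKM in control libraries (log2 fold change -0.79 ± 0.09 SE, limma adjusted p = 0.0108). Drug libraries agreed closely and the control libraries differed, yet the groups stood far apart. Of the PFKFB4 exon bases 4.73% are shared with UCN2 on the same strand. Its paralog PFKFB3 was more abundant and changed less, with 24.5 and 26.2 FPKM in drug and 30.9 and 29.97 FPKM in control libraries (log2 fold change -0.26 ± 0.04 SE, limma adjusted p = 0.0246). PDK1, a pyruvate dehydrogenase kinase gene, had 2.40 and 2.60 FPKM in drug and 3.27 and 3.18 FPKM in control libraries (limma adjusted p = 0.0465). That is a difference of -22.6% in mean FPKM, just inside the limma threshold, with an edgeR adjusted p of 0.000900.

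MXI1, a MYC antagonist, had 5.39 and 6.06 FPKM in drug and 8.30 and 7.22 FPKM in control libraries (limma adjusted p = 0.0434). The mitochondrial adenylate kinase gene AK4 had 23.1 and 22.8 FPKM in drug and 26.2 and 25.2 FPKM in control libraries (limma adjusted p = 0.0401). In both genes every drug library lay below every control library. Limma calls of PDK1, AK4 and MXI1 were lost whichever library was left out (adjusted p from 0.0725 to 0.173). PFKFB4 lost its call without drug 1, drug 2 or control 1 (adjusted p up to 0.0516), and PFKFB3 without drug 1, control 1 or control 2 (up to 0.111).

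The 3 genes for mitochondrial membrane proteins were also called lower by limma, against 6.02% of all tested genes. BNIP3 and BNIP3L encode outer membrane receptors that direct mitochondria to autophagy. BNIP3 had 20.7 and 20.5 FPKM in drug and 25.4 and 23.6 FPKM in control libraries (log2 fold change -0.24 ± 0.04 SE, limma adjusted p = 0.0288). BNIP3L had 7.74 and 8.20 FPKM in drug and 11.9 and 10.4 FPKM in control libraries (log2 fold change -0.44 ± 0.07 SE, limma adjusted p = 0.0206). Mean FPKM differed by -16.0% for BNIP3 and by -28.6% for BNIP3L, and the difference between these paralogs was not tested. FAM162A, a HIF-responsive mitochondrial protein gene, had 4.52 and 4.58 FPKM in drug and 6.16 and 5.81 FPKM in control libraries (log2 fold change -0.33 ± 0.05 SE, limma adjusted p = 0.0170). FAM162A lost its limma call whichever library was left out (adjusted p from 0.0645 to 0.0907), and BNIP3 and BNIP3L kept theirs only without control 2 (otherwise up to 0.115 and 0.0835). BNIP3 and FAM162A carry the core-rich promoter windows shown above.

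Collagen and disulfide enzymes were less uniform. P4HA1, a catalytic subunit of collagen prolyl hydroxylase, had 30.6 and 28.98 FPKM in drug and 37.3 and 35.4 FPKM in control libraries (log2 fold change -0.28 ± 0.04 SE, limma adjusted p = 0.0196). Its limma call was lost whichever library was left out (adjusted p from 0.0508 to 0.0854). P4HA2, the gene of the alternative catalytic subunit, had 3.97 and 3.93 FPKM in drug and 4.41 and 3.99 FPKM in control libraries and did not pass (limma adjusted p = 0.448). ERO1A, the oxidase that supplies disulfide bonds in the endoplasmic reticulum, had 50.1 and 53.1 FPKM in drug and 59.4 and 55.2 FPKM in control libraries. Both drug values of ERO1A were below both control values, but the gene passed with edgeR (adjusted p = 0.0149) and not with limma (0.108).

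Secreted signals gave one call. VEGFA, the vascular endothelial growth factor gene, had 7.47 and 7.43 FPKM in drug and 8.63 and 8.58 FPKM in control libraries. Replicates were tight and the groups apart, with a fall of 13.4% (log2 fold change -0.18 ± 0.04 SE, limma adjusted p = 0.0347), but the limma call was lost whichever library was left out (adjusted p from 0.113 to 0.143). ADM, which encodes the vasodilator adrenomedullin and is a strong HIF target in many cells, had 11.7 and 11.9 FPKM in drug and 11.5 and 11.8 FPKM in control libraries. Its groups overlapped (log2 fold change 0.02 ± 0.03 SE, limma adjusted p = 0.709).

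NDRG1, a stress-responsive gene whose transcript is used as a hypoxia marker, lies on chromosome 8 at 133237171 to 133302022. It had 1.98 and 2.09 FPKM in drug and 6.88 and 6.26 FPKM in control libraries, on 955 and 970 against 2355 and 2902 reads. The gap between groups was several times the spread within them (log2 fold change -1.32 ± 0.06 SE, limma adjusted p = 0.00142, edgeR adjusted p = 4.71e-07). NDRG1 was the member whose call held with each library left out (limma adjusted p from 0.00930 to 0.0181). ANKRD37, an ankyrin repeat gene induced by HIF, was under the filter at 0.0661 and 0.0918 FPKM in drug and 0.513 and 0.264 FPKM in control libraries. It rested on 6 and 8 reads against 33 and 23, with both drug counts below both controls. Exons of ANKRD37 overlap UFSP2 on the opposite strand over 35.2% of their bases. The authors' deposited table gives ANKRD37 a log2 fold change of -2.325 with an adjusted p of 0.0183, edgeR with its own filter on low reads gave an adjusted p of 0.0197, and limma without the filter gave 0.213. RAB20, a small GTPase gene, had 1 and 0 reads in drug and 2 and 2 reads in control libraries, too few to compare.

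Remaining targets did not pass limma. The pH regulator CA9, usually one of the most oxygen-sensitive transcripts, had 1.96 and 2.70 FPKM in drug and 3.03 and 2.82 FPKM in control libraries. Its drug replicates differed more than those of any other tested member, 1.38-fold, and the limma adjusted p was 0.221 on 126 to 174 reads. Exons of CA9 overlap ARHGEF39 on the opposite strand over 38.5% of their bases. CA12, a second membrane carbonic anhydrase gene, was under the filter at 0.639 and 0.809 FPKM in drug and 0.706 and 0.777 FPKM in control libraries.

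The histone demethylase genes KDM3A and KDM4B showed no call. KDM3A had 4.96 and 5.54 FPKM in drug and 5.33 and 5.27 FPKM in control libraries (log2 fold change -0.01 ± 0.06 SE, limma adjusted p = 0.896). KDM4B lay between 1.75 and 1.99 FPKM in all libraries (limma adjusted p = 0.442). ZNF395, a transcription factor gene, had 4.40 and 4.78 FPKM in drug and 5.54 and 5.14 FPKM in control libraries. It passed with edgeR (adjusted p = 0.0335) and not with limma (0.108), and shares 34.9% of its exon bases with FBXO16 on the same strand. WSB1, a ubiquitin ligase subunit gene, had 14.8 and 15.8 FPKM in drug and 16.6 and 16.0 FPKM in control libraries (adjusted p = 0.224 by limma and 0.0472 by DESeq2). FUT11, a fucosyltransferase gene, had 4.54 and 4.49 FPKM in drug and 4.55 and 5.05 FPKM in control libraries (limma adjusted p = 0.442). In both of these genes the drug libraries lay below the controls by less than 10%.

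Taking the libraries as they stand, both drug values lay below both control values in 21 of the 27 tested members, above them in 3 and overlapped in 3. Among all tested genes 23.3% lay below and 40.3% above. Within groups the members also leaned one way. Drug 2 exceeded drug 1 in 20 of the 27 members, and control 1 exceeded control 2 in 22, with a median ratio between replicates of 1.06 in either group. As shares, drug 2 was higher in 74.1% of members and 60.4% of all tested genes, and control 1 was higher in 81.5% of members and 47.1% of all tested genes. The median member change without drug 1 was -0.13 and without control 1 was -0.14.

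**Figure D3:**
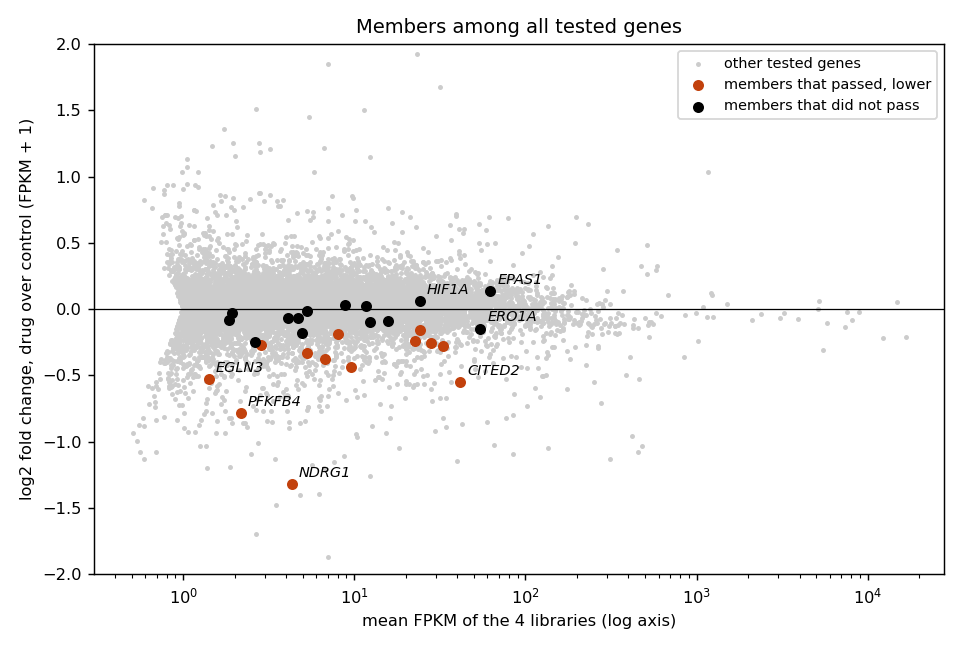
Log2 fold change (FPKM + 1) against mean FPKM over the 4 libraries on a log axis, with the 11227 tested genes in grey, members that passed in orange and members that did not in black. Members that fell are found at all levels from EGLN3 to CITED2, and 7 tested genes lie outside the vertical range shown.

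Other genes of the pathway were counted from 2 lists. These too were chosen with earlier results of these data known, so their counts are a description and no independent support. Among 43 tested HIF targets outside the members, 26 fell (60.5%) and 0 rose by limma, with a median log2 fold change of -0.28, against 6.02% of all tested genes lower and 7.78% higher. The count that fell was smaller with any library left out, and was 12 of 51 without the filter. Shares of all genes called were not computed for these fits, and the 6.02% does not apply to them. At an unadjusted p under 0.05 limma had 2 higher and 31 lower, against 21.0% and 12.1% of all tested genes. With edgeR 1 was higher (PFKP) and 33 lower, against 8.37% and 11.0% of all tested genes, and DESeq2 gave equal counts, against 6.89% and 9.88%. On the log2(FPKM + 1) scale the largest falls were in LOX, which crosslinks collagen, at 1.295 and 1.44 FPKM in drug and 6.31 and 4.94 FPKM in control libraries, and in the glucose transporter gene SLC2A3 at 53.0 and 54.5 FPKM in drug against 119 and 113 FPKM in control libraries. PPP1R3C, a glycogen-targeting phosphatase subunit gene, had 1.56 and 1.40 FPKM in drug and 4.32 and 3.72 FPKM in control libraries. In mean FPKM it differed by -63.1%, more than SLC2A3 at -53.6%. In all of these genes the groups were far apart.

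PLIN2, which coats lipid droplets, had 23.0 and 24.3 FPKM in drug and 47.1 and 42.2 FPKM in control libraries. DDIT4, an inhibitor of mTOR signalling, had 55.3 and 55.8 FPKM in drug and 99.8 and 98.2 FPKM in control libraries. LOX, SLC2A3, PPP1R3C, PLIN2 and DDIT4 had limma adjusted p-values between 0.000649 and 0.00502 and are among the 11 of the 26 whose calls held with each library left out. Another 6 (TPI1, PGAM1, PDK3, PLOD2, PGM1 and SPAG4) lost theirs whichever library was left out. Among 13 tested HIF partners and machinery genes, 1 rose and 0 fell by limma, a share near the 7.78% of all tested genes called higher. At an unadjusted p under 0.05 limma had 3 higher and 2 lower, against 21.0% and 12.1%. The single call was HSP90AA1, a chaperone that holds HIF alpha, at 678 and 632 FPKM in drug and 521 and 525 FPKM in control libraries (limma adjusted p = 0.0122), and it lost its call without control 1 (adjusted p = 0.0762), control 2 (0.0710) or the filter (0.0817). With edgeR 2 of the 13 genes were higher and 1 lower, against 8.37% and 11.0% of all tested genes. DESeq2 gave equal counts, against 6.89% and 9.88%. ARNT, the constant HIF partner, had 15.3 and 15.1 FPKM in drug and 14.88 and 14.97 FPKM in control libraries (limma adjusted p = 0.601).

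**Figure D4:**
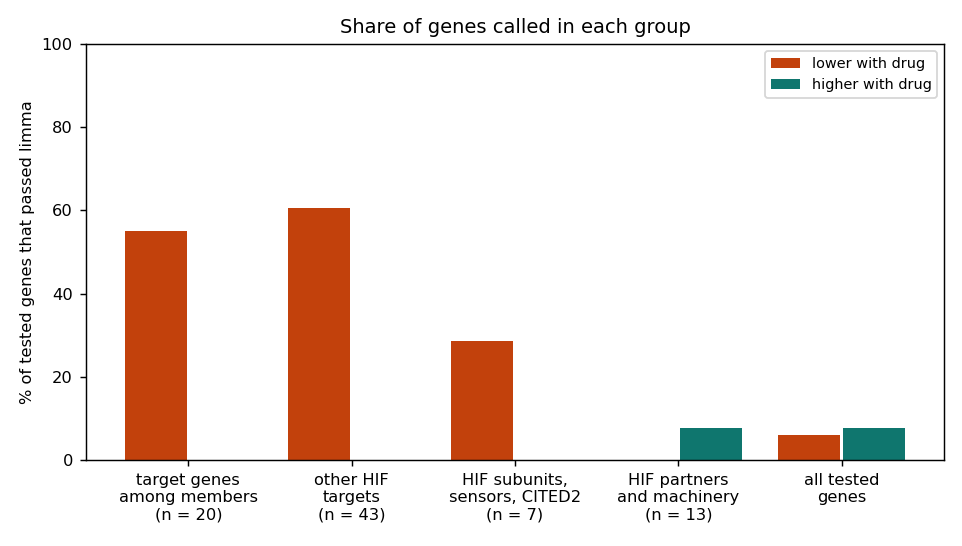
Percentage of tested genes that passed limma as lower (orange) or higher (green) with drug, for target genes among the members, other HIF targets, HIF subunits with sensors and CITED2, HIF partners and machinery, and all tested genes. Lower calls make up 55.0% and 60.5% of both target groups, against 6.02% of all tested genes.

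**Figure D5:**
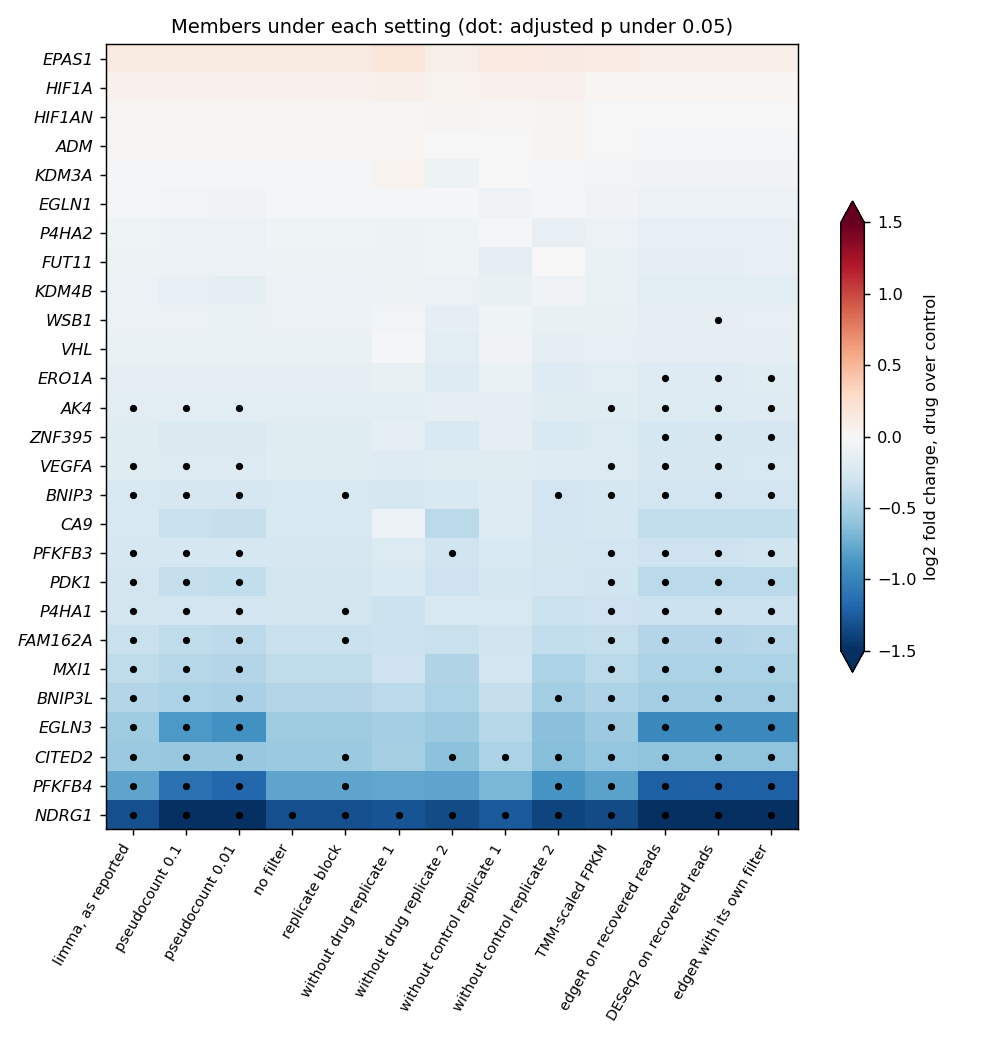
Log2 fold change of drug over control for the 27 tested members (rows) under each setting (columns), blue for lower and red for higher with drug, with dots at an adjusted p under 0.05. NDRG1 carries a dot in every column, while most other dots are absent without the filter or with a library left out.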

How the data were processed

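RNA of 2 drug and 2 control libraries of PLC8024 was sequenced. Per the labels' protocols, extraction was with trizol and library construction by Illumina's stranded mRNA guide. Per the submitters' processing notes, bcl2fastq was used and the build was hg38. Aligner, counter, annotation and strand setting are not given in these sources. The 4 library columns are deposited FPKM values, a unit read from the values because the header names none. The group columns are a deposited signal, mean reads over library size factors. Deposited log2 fold changes, p-values and adjusted p-values are the authors' own, per the file headers. Solving the FPKM and the group means jointly gave whole reads for each library (100% of values lay within 0.1 read of a whole number). Of values from 1 to 10 reads, 65.0% to 70.1% were even. Whether mates of a pair were counted singly was not tested, and the FPKM may be per read. Library totals are given with the results, and their number of 2 a group limits the precision.

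Genes averaging 1 FPKM or more in either group entered limma 3.58.1 (trend) on log2(FPKM + 1), which understates changes of low genes, at a Benjamini-Hochberg adjusted p under 0.05. The fixed plan covered a count table or FPKM, and FPKM was found. Alternatives were edgeR 4.0.16 (quasi-likelihood) and DESeq2 1.42.0 on recovered reads, pseudocounts of 0.1 and 0.01, no filter, TMM-scaled FPKM, the replicate number as a block, and leaving out libraries in turn. One more, edgeR with its own filter, was chosen after seeing the data. Scripts were tested on simulated data. Members and lists were chosen with earlier results of these data known. Members that passed limma or averaged 2 FPKM or more in either group are given by library, and up to 6 called genes of each list are named by size of change, of which 1 is not reported here. KDM4B, EGLN1, EGLN2, CA12, ANKRD37 and RAB20 fall outside that rule and complete the account. So do ARNT, LDHA, PFKP, the 6 list genes that lost their calls and the named cell type markers, chosen after their values were seen. Coordinates come from GENCODE 29 (GRCh38) and promoters from RefSeq (GRCh38.p14). Software was R 4.3.3 and Python 3.11.15, with matplotlib 3.10.9 for figures.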

Additional observations from a re-analysis of the deposited data

How the results depend on the processing

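The count of members called higher was 0 under all 12 alternatives. The count called lower, 13 with limma, was 1 without the filter on low values and ran from 1 to 5 with a library left out. It was 13 with either other pseudocount and with TMM-scaled FPKM, 15 with edgeR, 16 with DESeq2 and 16 with edgeR under its own filter. The replicate number as a block gave 6. Shares of all genes called were not computed for the block, no-filter, pseudocount, TMM-scaled or left-out-library fits. Same-numbered libraries did not deviate together (correlation 0.03 across 11227 genes), and with 2 pairs the numbers do not show pairing. The median log2 fold change of members, -0.18, ran from -0.20 to -0.13 with a library left out and was -0.25 with edgeR and with DESeq2. Of the genes named by the rule, 3 changed sign, none of them called under any setting. ADM was -0.0058 with TMM-scaled FPKM, -0.0187 with edgeR, -0.0191 with DESeq2 and -0.0129 with edgeR under its own filter. HIF1AN was -0.0078 with edgeR, -0.0080 with DESeq2 and -0.0019 with edgeR under its own filter. KDM3A ran from -0.0808 to 0.0539 with a library left out, and was positive without drug 1. For the call losses the fewer samples or the larger number of low genes in the fit are part of the alternative itself, and for the sign changes the cause was not tested. Depth limits RAB20 and ANKRD37 most, at 33 reads or fewer per library.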
